A study of Mus musculus with 24 samples.

Results

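The cells compared here were ear fibroblasts named for 24 months of age, in which the OSK factors had been switched on and then off again, set against untreated cells of the same age. The 8 libraries, 4 of each group, were those whose titles name 24 months with OSK on and off and 24 months alone, of 24 libraries in all. The series describes the cells as transgenic OSK mouse ear fibroblasts, in which doxycycline (DOX) induces Oct4 (gene symbol Pou5f1), Sox2 and Klf4. The withdrawal group had DOX for 6 days and then 4 days without it, and the untreated group carries no DOX treatment in its title. The other groups used below are untreated and withdrawal cells named for 3 months, with 4 libraries each, and, for values only, the 4 libraries of 24-month cells with OSK on. The strain, sex and number of animals, the promoter that drives the transgene and the day on which untreated cells were harvested are not given in the sources used here. The library names carry the letters a, b, d and e in each 24-month group, in the order of the replicate numbers 1 to 4. What a letter stands for is not given, nor whether the 4 libraries of a group came from separate animals or cultures. The p-values therefore measure the spread between libraries within groups, estimated over all 24 libraries, and that spread may be technical.

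Oct4, Sox2 and Klf4 are transcription factors that, expressed together for long enough, can move a fibroblast toward a pluripotent state. Short expression followed by withdrawal is called partial reprogramming, and the cells are expected to return to a fibroblast program. A comparison of withdrawn with untreated cells asks which transcripts stood above or below the untreated level at the time of harvest. By itself it does not separate a level that had not returned from one that passed the untreated level after withdrawal. Among the genes that can report on the state of such cells are those of cell division, the cyclin-dependent kinase inhibitors Cdkn2a and Cdkn2b that restrain it, and stress programs such as the integrated stress response, in which the factor ATF4 drives amino acid and cell death genes.

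Values are deposited normalized counts, that is, reads per gene divided by 1 factor per library. Changes are log2 fold changes of withdrawal minus untreated from limma on log2(value + 1), and a gene was called where its Benjamini-Hochberg adjusted p over all 14138 tested genes lay under 0.05. The 8 libraries held 23671970 to 31587979 reads. All 21 tested markers of fibroblast identity, out of 23 listed, stayed uncalled, with a median log2 change of 0.001, and the leukocyte list summed to 227 to 285 normalized counts in untreated and 181 to 303 in withdrawn libraries. The most abundant fibroblast markers were the vimentin gene Vim (log2 change 0.09, limma adjusted p 0.872) and the growth factor receptor gene Pdgfra (-0.12, 0.892). In a principal component analysis of the 8 libraries, the leading component took 39.5% of the variance. It placed untreated library 2 (-78.8) and withdrawal library 2 (-44.0) apart from the other 6, which lay between -12.9 and 41.9.

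Withdrawn cells differed from untreated cells at 237 genes, 88 higher and 149 lower, which is 1.68% of those tested (0.622% higher and 1.05% lower). The change was at least 2-fold for 121 of them, 38 higher and 83 lower. The receptor gene Ngfr, the cadherin gene Dchs1 and the kinase inhibitors Cdkn2a and Cdkn2b were among the genes that rose. Genes of mitosis, of glycolysis and of the integrated stress response were among those that fell. The 4 withdrawn libraries lay wholly above or wholly below the 4 untreated ones for 190 of the 237, against 6.87% of all tested genes. The 237 were chosen by a test on these same values, so the high share is no separate support for the calls. The number depended on single libraries. It fell to 59 without untreated library 2, 111 without untreated library 1, 69, 93 and 105 without withdrawal libraries 4, 3 and 1, and rose to 730 without withdrawal library 2. A fit to these 8 libraries alone called 10 genes.

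Some of the genes that fell carry known regulatory letters just upstream of their starts, and the 250 bases before the start are shown for 4 of them, from RefSeq on GRCm38.p6, the gene's own strand, 5′ to 3′. GRCm38 is the only mouse build named in the submitters' processing notes, and gene positions given here are RefSeq's on it. Capitals mark TGATGCAA, a site read by ATF4 with a C/EBP partner, in Chac1 (chr2:119350992-119351241, plus strand), TTTGAA, the cell cycle homology region of mitotic genes, in Top2a (chr11:99024190-99024439, minus strand) and Mki67 (chr7:135716380-135716629, minus strand), and ACGTG, the core of the hypoxia response element, on both strands of the palindrome CACGTG in Bnip3 (chr7:138909507-138909756, minus strand). Each motif was searched on both strands, so that its reverse complement (TTGCATCA, TTCAAA or CACGT) is marked too.
Chac1: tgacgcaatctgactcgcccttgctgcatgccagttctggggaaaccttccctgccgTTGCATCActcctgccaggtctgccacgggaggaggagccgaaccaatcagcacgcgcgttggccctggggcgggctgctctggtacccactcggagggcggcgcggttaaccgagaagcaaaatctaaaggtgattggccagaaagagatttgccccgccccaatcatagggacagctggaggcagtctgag
Top2a: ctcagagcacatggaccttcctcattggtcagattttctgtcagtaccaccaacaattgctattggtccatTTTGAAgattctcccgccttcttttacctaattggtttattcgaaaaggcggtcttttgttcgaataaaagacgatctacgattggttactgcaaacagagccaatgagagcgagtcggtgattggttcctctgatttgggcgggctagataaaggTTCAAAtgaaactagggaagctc
Mki67: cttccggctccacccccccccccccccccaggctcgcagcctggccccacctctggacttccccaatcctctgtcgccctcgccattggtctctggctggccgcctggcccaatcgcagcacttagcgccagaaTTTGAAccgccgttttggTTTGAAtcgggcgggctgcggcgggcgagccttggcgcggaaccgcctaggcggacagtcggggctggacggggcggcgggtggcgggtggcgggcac
Bnip3: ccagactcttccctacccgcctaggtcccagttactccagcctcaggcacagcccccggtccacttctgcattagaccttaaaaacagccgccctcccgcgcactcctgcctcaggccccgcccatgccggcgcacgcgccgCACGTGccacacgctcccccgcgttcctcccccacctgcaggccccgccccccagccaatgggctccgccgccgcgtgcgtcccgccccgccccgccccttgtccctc
The first motif lies 186 to 193 bases before the start of Chac1. It was found in 0.791% of the 32851 promoters of this length, and in 2 of the 6 called integrated stress response genes, Chac1 and Fgf21. TTTGAA stands in 16.0% of all promoters and in 2 of the 4 called proliferation genes that have an entry, and ACGTG in 16.6% of all and in 2 of 7 called glycolysis and hypoxia genes, Bnip3 and P4ha1. A match describes these letters only. The promoter entries of Mki67 and Top2a begin from a start inside the outermost end of the gene, so that the last 71 and 10 printed bases lie within the gene's extent, and no marked letters lie in them.

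The call threshold was not reached by any of the 3 factors in the fit used here, which has no replicate block. With the replicate number as a block, Klf4 (limma adjusted p 0.0138) and Pou5f1 (limma adjusted p 0.0383) passed it, both lower after withdrawal. Pou5f1 read 15.6, 30.6, 3.40 and 11.6 normalized counts in untreated libraries 1 to 4 and 2.00, 6.71, 0 and 6.92 in withdrawn libraries 1 to 4, where 24-month cells with OSK on had 4597 ± 1372 (SD, n = 4). Its log2 change of -1.83 was not called (limma adjusted p 0.124), and it passed the threshold without untreated library 3 (limma adjusted p 0.0433) and without withdrawal library 2. Sox2 read 77.2, 33.4, 70.3 and 39.4 against 107, 20.1, 95.8 and 84.2 (log2 change 0.32, limma adjusted p 0.833). Klf4 read 1786, 1837, 1172 and 1386 in untreated and 657, 1609, 495 and 607 in withdrawn libraries, which gave a log2 difference of -1.02 (SE 0.312, limma adjusted p 0.0971). Withdrawal library 2 lay within the untreated range of Klf4 and the other 3 below it; without that library Klf4 passed the threshold (limma adjusted p 0.00704). In the same comparison at 3 months, Klf4 was called lower (log2 change -1.89, limma adjusted p 0.000611), and Pou5f1 and Sox2 were not called. The table holds 1 value per symbol, so transgene and endogenous reads cannot be told apart. None of the 8 tested pluripotency genes, of 22 listed, was called, and 7 of the 22 were at 0 in all 8 libraries.

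Ngfr (chr11:95568818-95587698) showed the largest rise among called genes whose higher group mean was at least 50. It encodes the p75 neurotrophin receptor, which is known as a marker of neural crest and Schwann cells and of some mesenchymal progenitors. It read 13.9, 12.05, 18.1 and 84.2 in the untreated and 468, 721, 701 and 1815 in the withdrawn libraries. All withdrawn libraries lay above all untreated ones, with untreated library 4 the highest of its group. The gene changed by 5.09 on the log2 scale (SE 0.574, limma adjusted p 3.89e-05), and it stayed called in every fit that left out 1 of the 8 libraries (adjusted p up to 0.000443). Cells with OSK on had 1365 ± 174 (SD, n = 4). Ngfr was the 1 called gene among 18 tested neurotrophin ligands and receptors and among 20 tested Schwann and neural crest markers, where 1.68% of all genes were called and 0.622% called higher. That marker list summed to 15519 to 18508 normalized counts in untreated and 16178 to 17766 in withdrawn libraries. Of its 24 members, 3 were at 0 in all 8 libraries, Sox10, Foxd3 and Gfra3, named after their values were seen.

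Dchs1 (chr7:105752989-105788355), a large cadherin that binds Fat4 and orients cells in a tissue, read 123, 166, 29.5 and 86.9 in untreated libraries. In withdrawn libraries it read 586, 634, 799.9 and 1075, above every untreated value. Its log2 change was 3.13 (SE 0.487, limma adjusted p 0.00212). Dchs1 was the 1 called gene of 23 tested Fat, Dachsous and planar polarity genes, where 1.68% of all genes were called, 0.622% higher. Exons of Dchs1 overlap those of the antisense gene Gm15645, and the use of strand in counting is not given, so reads of the pair cannot be told apart.

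The membrane protein gene Mfsd6 read 14.7, 26.9, 15.9 and 27.8 in untreated libraries, against 123, 326, 123 and 99.2 after withdrawal. Its log2 change was 2.80 (SE 0.309, limma adjusted p 3.2e-05). Pipox, a peroxisomal oxidase of pipecolic acid and sarcosine, read 6.94, 1.85, 10.2 and 8.95 against 69.2, 25.7, 54.2 and 55.4. Its log2 change was 2.79 (SE 0.404, limma adjusted p 0.000843). Tmem35a, a chaperone of nicotinic acetylcholine receptors, read 79.8, 128, 91.8 and 80.6 against 339, 405, 321 and 250.3 (log2 change 1.79, limma adjusted p 1.81e-05). In these 3 genes, too, the groups did not overlap, and means with OSK on were higher again, at 1425 for Mfsd6, 573 for Pipox and 3115 for Tmem35a.

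Igfbp3, which binds insulin-like growth factors outside the cell, read 269, 725, 382 and 379.7 in untreated libraries. After withdrawal it read 985, 5935, 1364 and 1272, and library 2 stood far above the other 3. The rise was 2.12 on the log2 scale (SE 0.407, limma adjusted p 0.00998). Clu encodes clusterin, a secreted chaperone. It read 1874, 838, 1716 and 1881 in untreated and 4928, 3234, 9082 and 6924 in withdrawn libraries (log2 change 1.91, SE 0.307, limma adjusted p 0.00266). Both genes lay above the untreated range in all 4 withdrawn libraries.

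The other large rises were those of the orphan receptor gene Gpr27 (log2 change 2.48), the sulfotransferase gene Chst8 (2.30), Nebl (1.93), Zbtb7c (1.68), Tmem158 (1.62) and Fam107a (1.60). The groups did not overlap in any of these 6. Chst8 was at 13.0 with OSK on, under its untreated mean of 76.2, and at 284 after withdrawal. Of the 13 largest rises, 7 kept their call whichever of the 8 libraries was left out. The 6 that lost it in some fit were Gpr27, Chst8, Nebl, Zbtb7c, Tmem158 and Fam107a, with highest adjusted p from 0.0589 to 0.147 in the fits without untreated library 2 or withdrawal library 4. Without withdrawal library 3, 5 lost their call, without withdrawal library 1, 4, without untreated library 4, 3, without untreated library 1, 2, and without untreated library 3, 1.

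**Figure D1:**
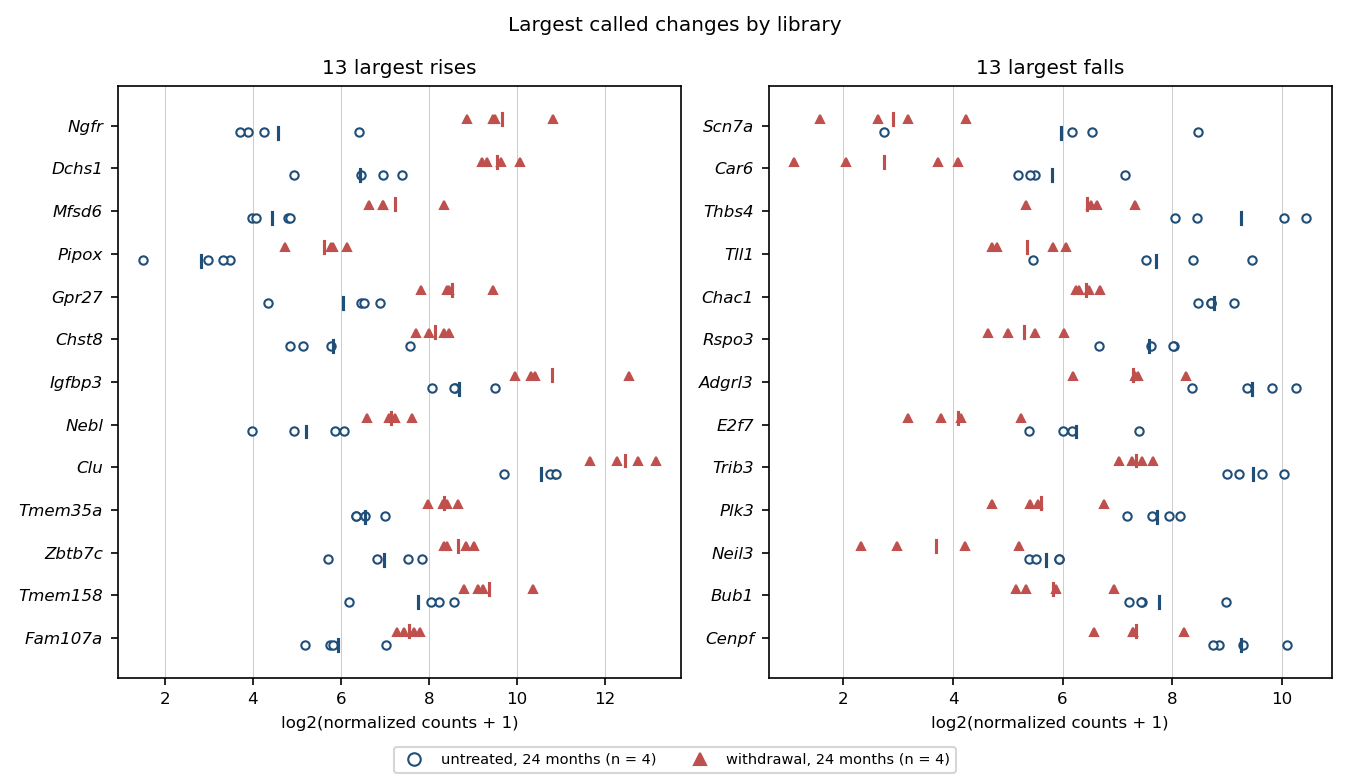
Log2(normalized counts + 1) of the 13 called genes with the largest rises (left) and the 13 with the largest falls (right) in each 24-month library; open circles are the 4 untreated and triangles the 4 withdrawn libraries, and vertical bars are group means. The groups overlap only for Scn7a and Tll1.

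The series' design text names Gsta4 (chr9:78191966-78209349), a glutathione S-transferase that conjugates lipid aldehydes. It read 273, 271, 379 and 292 in untreated and 932, 847, 529 and 609 in withdrawn libraries, where OSK-on cells had 7856 ± 1754 (SD, n = 4). The log2 change of 1.24 was called (SE 0.281, limma adjusted p 0.0286). It was the 1 called gene of 17 tested cytosolic glutathione S-transferases, where 1.68% of all genes were called, 0.622% higher. The call was lost without untreated library 1, 2 or 4 and without withdrawal library 1 or 4 (adjusted p up to 0.0971). Aldh3a1, which oxidizes aldehydes, was the 1 called gene of 22 tested aldehyde dehydrogenases and reductases, beside the same share of all genes. It read 110.2, 104, 124 and 117 in untreated and 279, 363, 423 and 298 in withdrawn libraries (log2 change 1.56, SE 0.26, limma adjusted p 0.00372). Its mean was 47093 with OSK on. Of 26 NRF2 target genes, again beside 0.622% of all genes called higher, 1 was called, Gclc, the catalytic subunit of glutathione synthesis (log2 change 0.82, limma adjusted p 0.0331), and its groups overlapped. The list had a median log2 change of 0.03, and Gclc lost its call without untreated library 1 or 2 or withdrawal library 1, 3 or 4 (adjusted p up to 0.14).

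Of 30 listed proliferation genes, all tested, 5 were called lower and 0 higher, where 1.05% of all genes were called lower and 0.622% higher. The median log2 change was -1.15 against -0.01 over all tested genes. All 30 changes lay below 0, and 23 of the 30 had an unadjusted p under 0.05. Of all tested genes, 15.7% passed that level, 9.14% lower and 6.54% higher. Mki67, which codes for the proliferation marker Ki-67, read 964, 2861, 1239 and 1198 in untreated and 309, 837, 372 and 384 in withdrawn libraries (log2 change -1.70, SE 0.409, limma adjusted p 0.0397). Top2a, the topoisomerase that separates sister chromatids, whose promoter is printed above, read 1453, 4241, 1823 and 1643 against 713, 1439, 675 and 629.7 (log2 change -1.35, limma adjusted p 0.0422). In both genes library 2 was the highest of each group, and the groups did not overlap. With OSK on at 24 months, the means were 5432 for Mki67 and 6239 for Top2a, above the untreated means of 1566 and 2290.

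The spindle checkpoint kinase genes Bub1 (log2 change -1.94, limma adjusted p 0.0461) and Bub1b (-1.63, limma adjusted p 0.0407) and the cyclin A gene Ccna2 (-1.61, limma adjusted p 0.0486) were the other called members. Exons of Ccna2 overlap those of Exosc9 on the opposite strand. The smallest changes of the list, named after their values were seen, were those of the S phase and G1 genes Pcna (0 to 2 decimals, limma adjusted p 0.994), Ccne1 (-0.02, 0.984) and Tyms (-0.08, 0.919). The mitotic genes Ccnb1 (-1.55) and Plk1 (-1.55) were not called, at limma adjusted p 0.0797 and 0.078. Among the 13 largest falls were 3 further genes of the cycle. They were Cenpf, a kinetochore protein (log2 change -1.91, limma adjusted p 0.0146), E2f7, a repressor of the E2F family (-2.16, limma adjusted p 0.0312), and Neil3, a DNA glycosylase of S phase (-2.01, limma adjusted p 0.049). With OSK on, the 24-month means of Bub1, Bub1b, Ccna2, Cenpf, E2f7 and Neil3 were also above their untreated means.

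The count of called proliferation genes turned on a few libraries. It was 0 without untreated library 2 and without withdrawal library 1, 3 or 4, 2 without untreated library 4, 3 without untreated library 1, and 15 without withdrawal library 2. Since the spread is estimated over all 24 libraries, it was also 0, 1, 3 and 3 without 3-month untreated libraries 2, 4, 1 and 3, and 9, 8 and 8 without 3-month withdrawal libraries 1, 2 and 4. Without both libraries numbered 2 it was 9, with a median log2 change of -1.01. At 3 months 26 of the 30 were called lower in the same comparison, with a median of -1.88, where 5.57% of all genes were called lower. In bulk RNA, fewer dividing cells and less of these transcripts per cell cannot be told apart.

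The kinase inhibitors of the Ink4 locus were higher after withdrawal. Cdkn2b (chr4:89306289-89311032), which codes for p15, an inhibitor of the kinases CDK4 and CDK6, read 555, 522, 556 and 502 in untreated and 1265, 1461, 1049 and 1021 in withdrawn libraries. Its log2 change was 1.15 (SE 0.175, limma adjusted p 0.00164), and it stayed called in each fit without 1 of the 8 libraries. Its neighbour Cdkn2a (chr4:89274473-89294619) codes for both p16 and p19Arf, which 1 value per symbol does not separate. Cdkn2a read 749, 1575, 1349 and 904 in untreated and 2970.1, 4401, 2245 and 2483 in withdrawn libraries (log2 change 1.41, SE 0.289, limma adjusted p 0.0146). The groups of both genes did not overlap. Without untreated library 1 the adjusted p of Cdkn2a was 0.053.

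With Igfbp3, these were the 3 genes called higher of 23 tested senescence and secretory genes, against 0.622% of all genes, and 0 were called lower. At an unadjusted p under 0.05, 3 were higher and 5 lower, against 6.54% and 9.14% of all genes. The median of the list was -0.49. Its secreted factors did not rise together: Il6, named after its value was seen, had a log2 change of -0.82 (limma adjusted p 0.26), and Il1a, Il1b and Csf3 had at most a few reads in any library. Cdkn1a, which codes for p21, had a log2 change of 0.19 (limma adjusted p 0.736). Of 26 tested p53 targets, the nuclease gene Aen rose (0.57, limma adjusted p 0.0348) and the kinase gene Plk3 fell (-2.12, limma adjusted p 0.00892), where 0.622% of all genes were called higher and 1.05% lower. Plk3 read 245, 283, 143 and 197 in untreated and 25.1, 106, 45.8 and 41.5 in withdrawn libraries. Aen lost its call without untreated library 1 or 4 or withdrawal library 3 or 4 (adjusted p up to 0.0962), and exons of Plk3 overlap Tctex1d4 on the opposite strand.

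Of 37 genes of the integrated stress response, 5 fell and 1 rose, where 1.05% of all genes were called lower and 0.622% higher. Chac1, an enzyme that breaks down glutathione and a late target of ATF4 and CHOP, read 553, 417, 417 and 355 in untreated libraries. In withdrawn libraries it read 77.2, 75.0, 102 and 88.8, below every untreated value and with little spread. Its log2 change was -2.32 (SE 0.242, limma adjusted p 1.81e-05). Trib3 (chr2:152337425-152344060), a pseudokinase induced by the same pair of factors, read 1049, 789, 508 and 595 against 198, 129, 174 and 152 (log2 change -2.13, SE 0.258, limma adjusted p 0.000106). Ddit3, the gene of CHOP itself, read 638, 357, 524 and 497 against 346, 299.9, 269 and 231 (log2 change -0.80, SE 0.149, limma adjusted p 0.00808). All 3 stayed called in each fit without 1 of the 8 libraries.

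The other called members were Shmt2, a mitochondrial enzyme of serine metabolism (log2 change -0.61, limma adjusted p 0.0484), the hormone gene Fgf21 (-2.12, limma adjusted p 0.0484) and the mTORC1 inhibitor gene Ddit4, which rose (0.94, limma adjusted p 0.0422). Fgf21 lay between 0 and 19.7 normalized counts in all 8 libraries. The median log2 change of the 37 genes was -0.18. Atf4 itself (-0.19, limma adjusted p 0.45) and the asparagine synthetase gene Asns (-0.08, limma adjusted p 0.907), named after their values were seen, were not called. None of the 22 tested chaperones of the endoplasmic reticulum was called, with a median of -0.01. Shmt2, Fgf21 and Ddit4 each lost their call without untreated library 1 or 2 or withdrawal library 3 or 4, and some of them without the other libraries (highest adjusted p 0.143 to 0.185). Exons of Ddit3 overlap Mars and those of Shmt2 overlap Ndufa4l2, both on the opposite strand.

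Of 27 genes of glycolysis and the hypoxia response, 7 were called lower, against 1.05% of all genes, and 0 higher, against 0.622%. The median log2 change was -0.45, and 18 had an unadjusted p under 0.05 and a negative change, against 9.14% of all genes. The groups did not overlap, with withdrawal lower, for 11 of the 27, against 3.71% of all genes, and higher for 1, against 3.15%. Pfkl, a subunit of phosphofructokinase, the committed step of glycolysis, read 11861, 13354, 12946 and 10859 in untreated and 7878, 8373, 8664 and 7239 in withdrawn libraries (log2 change -0.61, SE 0.106, limma adjusted p 0.00555). Another subunit gene, Pfkp, had a log2 change of -0.53 (limma adjusted p 0.00296). Pdk1, a kinase that inhibits pyruvate dehydrogenase, read 4475, 5392, 4362 and 4057 against 3015, 3002, 3002 and 2359.7 (log2 change -0.68, limma adjusted p 0.00249).

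Gpi1, glucose phosphate isomerase (log2 change -0.65, limma adjusted p 0.00998), the hexokinase gene Hk1 (-0.58, limma adjusted p 0.0364, groups overlapping), the mitophagy receptor gene Bnip3 (-0.80, limma adjusted p 0.0224) and P4ha1, a collagen prolyl hydroxylase (-0.50, limma adjusted p 0.0207), were the remaining called members. Not all of the list went this way. Ankrd37 (0.93, limma adjusted p 0.0507), Hk2 (0.63, limma adjusted p 0.0502) and the glucose transporter gene Slc2a1 (0.42, limma adjusted p 0.0654), named after their values were seen, were just short of a call on the higher side, and in the fit without both libraries numbered 2 the list had 2 called higher and 6 lower. Gpi1, Hk1, Bnip3 and P4ha1 lost their calls without untreated library 2 or withdrawal library 4, and some of them without withdrawal library 1 or 3 or untreated library 1 (highest adjusted p 0.051 to 0.141). With OSK on, the 24-month mean of Gpi1 was 35270 against 14852 in untreated cells. Means with OSK on were also above the untreated means for Pfkl, Pfkp, Pdk1, Hk1 and Bnip3, and below for P4ha1 (11324 against 13007). Exons of Gpi1, Bnip3 and Pfkp overlap those of a gene on the opposite strand.

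**Figure D2:**
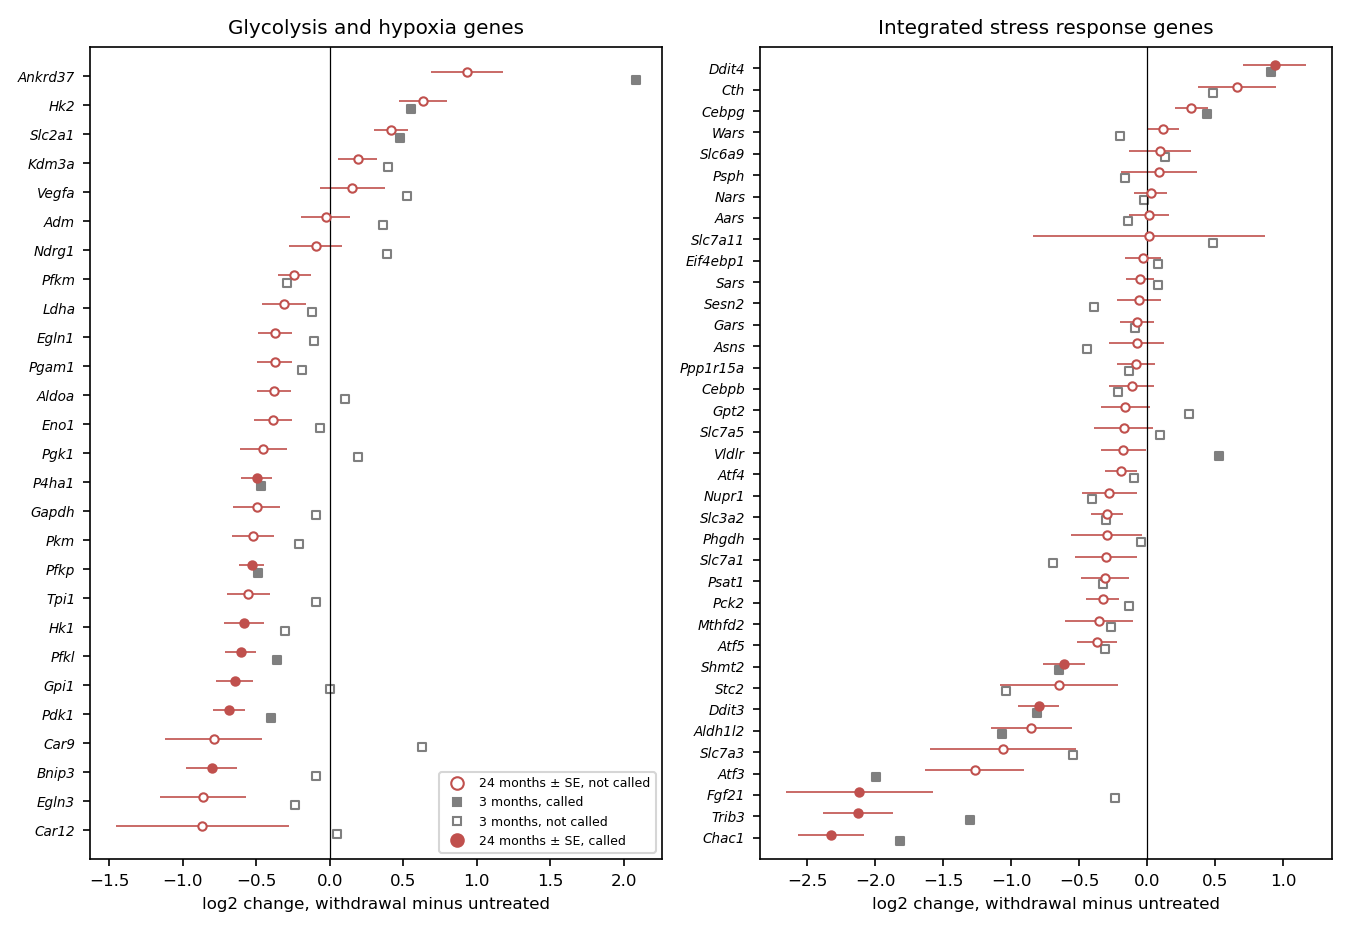
Log2 change, withdrawal minus untreated, of the glycolysis and hypoxia genes (left, 27 genes) and of the integrated stress response genes (right, 37 genes); circles with SE bars are 24 months and squares 3 months, filled where called. Called genes on the left lie between -0.80 and -0.50, and Chac1, Trib3 and Fgf21 on the right lie below -2.

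In 3 lists of matrix genes 0 genes were called higher and 5 lower, where 1.05% of all genes were called lower. Thrombospondin 4 (Thbs4), a matricellular protein of tendon and healing tissue, read 1049, 1391, 264 and 349 in untreated and 158, 39.2, 90.6 and 98.0 in withdrawn libraries (log2 change -2.80, SE 0.53, limma adjusted p 0.00892). It was the 1 called gene of 30 matricellular and fibre genes, whose median log2 change was -0.43, and without untreated library 2 its adjusted p was 0.051. Among 25 collagen and crosslinking genes, Plod1 (-0.68, limma adjusted p 0.0199) and P4ha1, both of which hydroxylate collagen chains, were called lower, and 20 of the 25 changes lay below 0. The collagen gene Col1a1, named after its value was seen, was not called (-0.30, limma adjusted p 0.671). Of 26 tested matrix proteases and inhibitors, the urokinase receptor gene Plaur (-1.49) and the protease inhibitor gene Serpine2 (-1.24) were called lower, each at limma adjusted p 0.0422. An unadjusted p under 0.05 with a negative change was found for 7 of the 25 collagen, 8 of the 30 matricellular and 8 of the 26 protease genes, against 9.14% of all genes. Plod1 and P4ha1 lost their calls without untreated library 2 or withdrawal library 1 or 4, Plod1 also without untreated library 1 and P4ha1 without withdrawal library 3 (adjusted p up to 0.093). Plaur and Serpine2 lost theirs without any 1 of untreated libraries 1 to 3 or withdrawal libraries 1, 3 and 4, and Serpine2 also without untreated library 4 (adjusted p up to 0.156).

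Rspo3, a secreted amplifier of Wnt signals, read 259, 258, 99.8 and 195 in untreated and 44.1, 63.8, 23.95 and 31.1 in withdrawn libraries (log2 change -2.29, limma adjusted p 0.0189). It was the 1 called gene of 29 tested Wnt genes, where 1.68% of all genes were called, 1.05% lower. Its mean was 0.235 with OSK on. Nuak2, a kinase and a target of YAP, read 488, 446, 462 and 396 against 93.2, 223, 228 and 103 (log2 change -1.58, SE 0.267, limma adjusted p 0.00392). It was the 1 call among 22 YAP and TEAD targets, beside the same shares of all genes. Of the 22, 16 changes lay below 0 and 5 were lower at an unadjusted p under 0.05, against 9.14% of all genes. Over all tested genes, 6926 of 14138 had a change above 0. The imprinted gene Dlk1, an inhibitor of adipocyte formation, read 2268, 5621, 4541 and 1777 against 1134, 1161, 809 and 539 (log2 change -1.87, limma adjusted p 0.037). Of 24 immediate early genes, Fos rose (1.12, limma adjusted p 0.0189) and Egr3 fell (-1.34, limma adjusted p 0.0474), where 0.622% of all genes were called higher and 1.05% lower. Of those 24, 16 changes lay below 0, 8 were lower at an unadjusted p under 0.05, against 9.14% of all genes, and 4 did not overlap on the lower side, against 3.71%. Rspo3, Dlk1, Fos and Egr3 lost their calls without untreated library 1 or 2 or withdrawal library 3 or 4, and some also without withdrawal library 1 or untreated library 3 (highest adjusted p 0.0724 to 0.187).

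Cebpa, a transcription factor of adipocytes and myeloid cells, read 1938, 1016, 4392 and 2642 in untreated and 8571, 3117, 7934 and 9037 in withdrawn libraries (log2 change 1.60, SE 0.393, limma adjusted p 0.0422). The groups overlapped, since withdrawal library 2 lay under untreated library 3, and the call was lost without untreated library 1, 2 or 4 or withdrawal library 1, 3 or 4 (adjusted p up to 0.156). It was the 1 called gene of 14 tested adipocyte markers, where 1.68% of all genes were called, 0.622% higher. Of the 14, 12 had changes above 0, against 6926 of all 14138 tested genes. The median log2 change of the list was 0.73 (1.05 at 3 months). That list summed to 6559 to 34188 normalized counts in untreated and 15607 to 34187 in withdrawn libraries, and no marker was at 0 in all 8. The part of adipocyte genes in the change of Cebpa was not tested.

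Several other genes fell steeply from low or uneven untreated levels. The sodium channel gene Scn7a had a log2 change of -3.07 (limma adjusted p 0.0486) and the carbonic anhydrase gene Car6 one of -3.06 (limma adjusted p 0.0305). The protease gene Tll1 (-2.35, limma adjusted p 0.0383) and the adhesion receptor gene Adgrl3 (-2.16, limma adjusted p 0.0294) fell as well. Scn7a read 71.1, 351, 5.67 and 92.2 in untreated and 2.00, 17.9, 5.21 and 8.07 in withdrawn libraries, so that untreated library 3 lay within the withdrawn range. Exons of Rspo3, Adgrl3, Cebpa and Pou5f1 also overlap a predicted gene on the opposite strand, and their reads cannot be told apart from it. Of the 13 largest falls, Chac1, Trib3 and Plk3 kept their call whichever of the 8 libraries was left out, and the other 10 lost it in some fit, all 10 without untreated library 2 and 9 without withdrawal library 4 (highest adjusted p 0.051 to 0.187).

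Several lists had no called member. They were the markers of myofibroblasts, cartilage, skeletal muscle, keratinocytes, melanocytes, endothelium and leukocytes, and the genes of cholesterol synthesis, the interferon response, antigen presentation, complement, TGF-beta and BMP signalling and regional Hox identity. Their medians lay between -0.25 (melanocyte, 5 tested) and 0.51 (skeletal muscle, 9 tested), and none of these values was tested. The cartilage list varied most within a group, from 31651 to 194673 normalized counts in untreated and from 30735 to 157282 in withdrawn libraries.

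The same comparison in cells named for 3 months shares no library with that at 24 months. Both come from 1 fit with a shared estimate of each gene's spread, so their calls are not independent. Fits limited to the groups compared called 7 genes at both ages. The names of 3-month libraries 1 and 2 share the letter b in each group, and what it stands for is not given. It called 1355 genes, 567 higher and 788 lower (9.58% of those tested, 4.01% higher and 5.57% lower). Of the 237 genes called at 24 months, 134 were called at 3 months as well, 47 higher and 87 lower at both ages, and 0 in opposite directions. That is 56.5% of the 24-month list and 9.89% of the 3-month list. The sign of the change was the same at both ages for 226 of the 237. Across all tested genes, which are not independent replicates, Pearson's r between the log2 changes at the 2 ages was 0.531 and Spearman's rho 0.497.

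Ngfr (5.09 at 24 and 3.43 at 3 months), Dchs1 (3.13 and 4.67), Pipox (2.79 and 2.72), Gpr27 (2.48 and 2.01) and Mfsd6 (2.80 and 1.96) had the largest log2 changes called higher at both ages, ranked by the smaller of the pair among genes with a 24-month group mean of at least 50. Rspo3 (-2.29 and -2.40), E2f7 (-2.16 and -2.84), Plk3 (-2.12 and -3.07), Neil3 (-2.01 and -2.72) and Bub1 (-1.94 and -2.50) led the lower side under the same limit, which left out Gal3st2 (-2.24 and -3.32), at 6.67 normalized counts in untreated 24-month cells. Igfbp3, Clu, Chst8 and Nebl were called at 24 months and not at 3 months, where Igfbp3 had a log2 change of -0.50, but the difference between the ages was not called for them (limma interaction adjusted p 0.2 for Igfbp3, 0.542 for Clu, 0.699 for Chst8 and 0.529 for Nebl). With the replicate block, the age difference was called for Igfbp3 (limma interaction adjusted p 0.0196) and not for Clu, Chst8 and Nebl.

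The interaction test called 1 gene, 0.00707% of those tested, as different between the ages in its change, and 987, or 6.98%, did so at an unadjusted p under 0.05. It was Ptn (chr6:36714924-36810179), which codes for pleiotrophin, a secreted growth factor. At 24 months Ptn read 83342, 43437, 49598 and 65387 in untreated and 148588, 77809.8, 125926 and 85649 in withdrawn libraries, a log2 change of 0.85 that was not called (limma adjusted p 0.107). In 3-month cells its values went from 1271, 2183, 941 and 1613 in untreated to 8998, 20359, 13195 and 15571 in withdrawn libraries, a log2 change of 3.28 (limma adjusted p 2.33e-07). The interaction was -2.43 (SE 0.38, limma adjusted p 0.0295). The number of such genes was 0 without 24-month untreated library 1 or 4, 24-month withdrawal library 2 or 4, 3-month untreated library 1, 3 or 4 or 3-month withdrawal library 2 or 3. It was 3 without 3-month untreated library 2 or 3-month withdrawal library 4. The quasi-likelihood test of edgeR called 0 such genes, DESeq2 called 40 and the limma fit with the replicate block called 23. The 24-month change of Ptn passed the threshold without withdrawal library 2 (limma adjusted p 0.0446) and with the replicate block (limma adjusted p 0.0314).

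**Figure D3:**
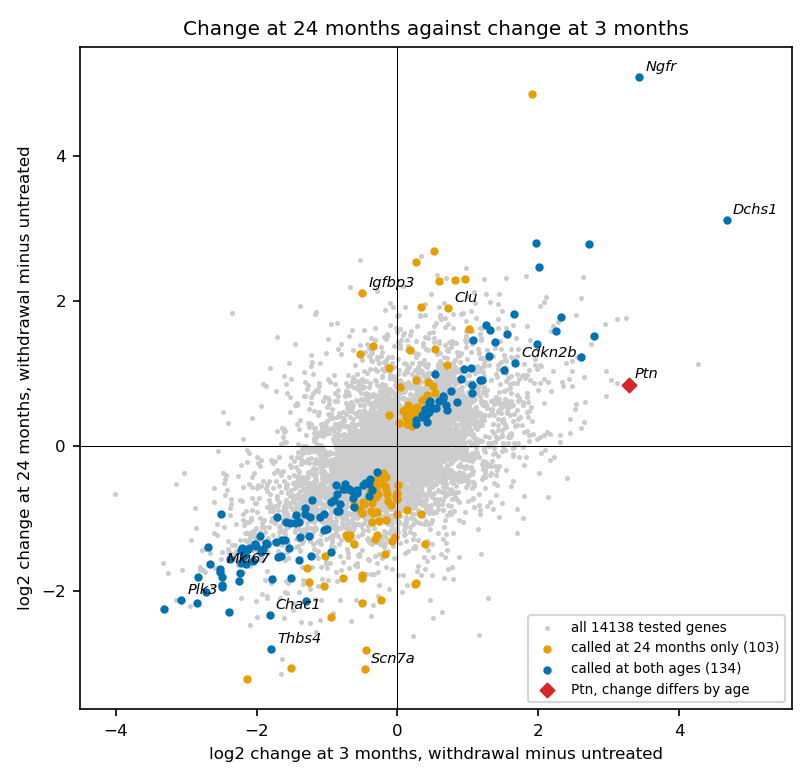
Log2 change at 24 months against that at 3 months, withdrawal minus untreated, for the 14138 tested genes; blue points were called at both ages, orange points at 24 months only, and the diamond is Ptn. All 134 blue points lie in the lower left or upper right quadrant.

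**Figure D4:**
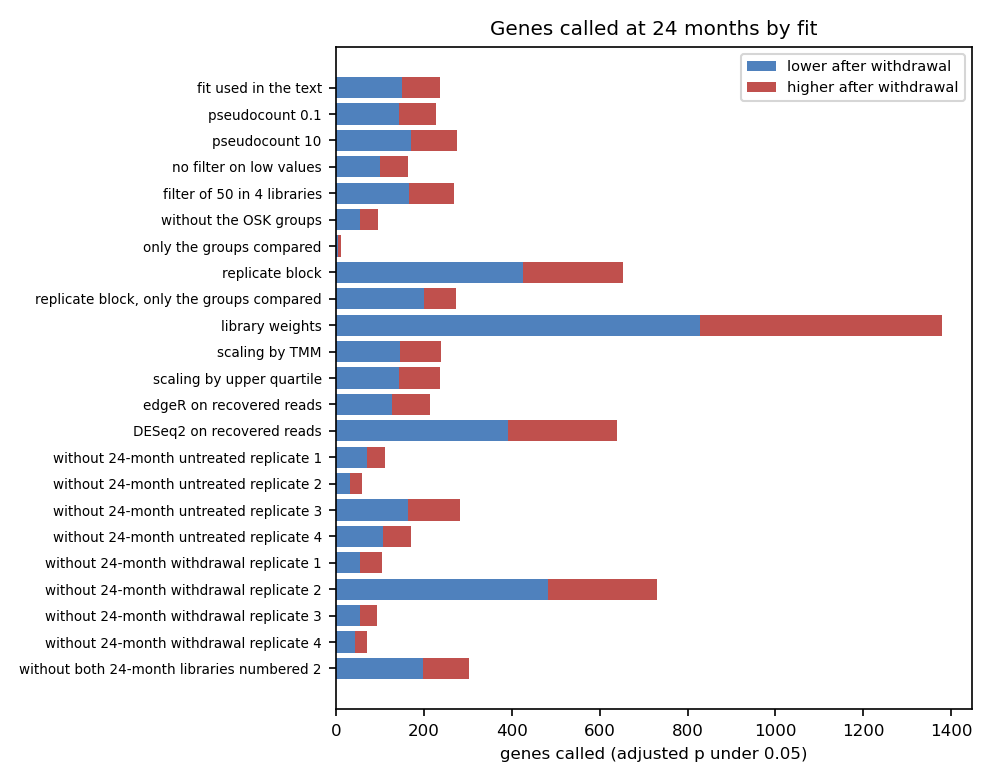
Number of genes called in 24-month withdrawal against untreated cells under each fit, split into lower (left part of each bar) and higher (right part). The fit used in the text called 237 genes, that with library weights 1379 and that limited to the groups compared 10.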

How the data were processed

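Polyadenylated RNA was sequenced in 24 libraries, of which 4 untreated and 4 OSK-withdrawn libraries at 24 months are compared here. TRIzol extraction, oligo(dT) selection and the NEBNext Ultra II kit were used, per the labels' protocols. STAR 2.7.1a and featureCounts 1.6.2 are named in the submitters' processing notes, with human and mouse builds whose role is not stated there. The annotation, strand setting and normalizing tool are not given in the sources used here.

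The deposited values are signal, gene counts that the authors divided by 1 factor per library. In each column 100% of values were whole multiples of 1 step (to the 2 decimals printed), so whole reads were recovered for edgeR 4.0.16 (TMM) and DESeq2 1.42.0 (all 24 libraries), and edgeR called 214 genes. In 2 columns the step lay within 0.01 of 1. Columns without a sample numbered 0. No pair of the 12 within-group library pairs agreed within sampling noise (chi-square per degree of freedom 35.7 to 210.03 over genes with at least 50 reads).

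Genes with at least 10 in at least 4 libraries were fitted as log2(value + 1) with limma 3.58.1 in R 4.3.3 (1 coefficient per group over all 24 libraries, 18 residual degrees of freedom, eBayes with trend and robust), with two-sided tests and Benjamini-Hochberg adjustment. The pseudocount understates changes of low genes. The scripts were tested on simulated data. The comparison, gene lists and rules were chosen with earlier results of these data known. Named genes are Pou5f1, Sox2, Klf4 and Gsta4, the 13 largest called rises and falls with a higher group mean of at least 50 (predicted genes, clone names and pseudogene symbols left out), up to 3 interaction genes and 5 genes per direction called at both ages, and each list's called members, or up to 3 of its most abundant where none was called. Others were named after their values were seen. Alternatives were other pseudocounts (0.1, 10), filters, samples, scalings, weights, tests and left-out libraries, a replicate block, and, chosen after seeing the data, a fit without both libraries numbered 2.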

Additional observations from a re-analysis of the deposited data

Results flagged for a closer look

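Of 140 groups of 4 libraries checked by Dixon's test (a named gene's normalized counts, or the read totals, in the untreated or withdrawn group), 18 had a library far from the other 3. For independent, normally distributed values chance flags about 1 in 20. The counts were not log-transformed and genes can vary together, so that rate need not hold here. Withdrawal library 2 was the high one for Klf4 (1609 normalized counts, others up to 657), Mfsd6 (326, others up to 123), Igfbp3 (5935, others up to 1364), Plaur (273, others up to 108), Mki67 (837, others up to 384), Top2a (1439, others up to 713) and Ccna2 (481, others up to 209.5). Untreated library 2 was high for Bub1 (500.4, others up to 173), Mki67 (2861, others up to 1239), Top2a (4241, others up to 1823) and Bub1b (1231, others up to 557), and low for Clu (838, others from 1716). The remaining libraries far from their group were untreated library 4 for Ngfr (84.2), untreated library 3 for Chst8 (189), untreated library 1 for Car6 (141) and withdrawal library 4 for Pdk1 (2359.7, others from 3002). For She, an adapter protein gene named after its values were seen, untreated library 2 had 1.85 normalized counts and the others 0, and withdrawal library 4 had 13.8 and the others from 50.1.

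The change of Ptn differed between ages, with a log2 change at 24 months lower than that at 3 months by an interaction of -2.43 (limma adjusted p 0.0295), from 0.85 and 3.28.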

How the results depend on the processing

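The called genes named in the report (Gal3st2, Neat1 and Igsf8 were not followed), the 3 factors and Ptn kept the sign of their 24-month change under the alternatives run. The balance of calls did turn, from 88 higher and 149 lower to 6 higher and 4 lower, with only the groups compared. The number of genes called at 24 months was within 1.5 times of 237 with other pseudocounts, filters and scalings and with edgeR. It was 96 (42 higher) without the OSK groups, 10 (6 higher) with only the groups compared, 640 (248 higher) with DESeq2 and 1379 (551 higher) with library weights. Leaving out 1 library gave 59 to 730 at 24 months, 37 to 351 genes called at both ages, and 0 to 3 with an age difference. Genes called at both ages numbered 82 without a filter, 51 without the OSK groups, 7 with only the groups compared, 429 with library weights and 359 with DESeq2. Genes with an age difference numbered 3 with a pseudocount of 10, 2 without a filter, 0 without the OSK groups, with only the groups compared and with edgeR, 40 with DESeq2, and 2 without both libraries numbered 2, where 302 genes were called at 24 months. The cause of these differences was not tested.

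Libraries with the same replicate number, and so the same letter in their names, at 24 months correlated in their deviations from the group means at 0.032, 0.605, 0.396 and 0.274 for numbers 1 to 4, so that 1 pair lay under 0.1 and the numbers were not taken as pairs. At 3 months the values were 0.261, 0.107, 0.141 and 0.162, and between OSK-on and untreated cells at 24 months 0.138, 0.306, 0.246 and 0.173, all above 0.1. For number 1, withdrawal library 1 correlated best with untreated library 3 (0.272). With the replicate block, 654 genes were called at 24 months (229 higher), 379 at both ages and 23 with an age difference. That block also called Klf4 (limma adjusted p 0.0138), Pou5f1 (0.0383) and Ptn (0.0314) at 24 months and the age difference of Igfbp3 (0.0196), and its calls numbered 0 higher and 14 lower in the proliferation list and 3 higher and 14 lower in the glycolysis and hypoxia list. With the replicate block and only the groups compared, the age difference numbered 7 and the 24-month calls 273.

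The 10 genes that the fit to the 8 libraries alone called were Ngfr, She, Tmem35a, Aldh3a1, Cdkn2b, Rhou, Chac1, Trib3, Neat1 and Igsf8 (She, Rhou, Neat1 and Igsf8 named after their values were seen). Of the 237 genes, 9 were called under all 30 alternatives, and 45 in all 8 fits that left out 1 of the libraries compared. With 23671970 to 31587979 reads, genes that did not reach 10 normalized counts in at least 4 of the 24 libraries were not tested.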

Other observations

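Genes in this section were named after their values were seen. She, an adapter protein of receptor tyrosine kinases, had 0, 1.85, 0 and 0 normalized counts in untreated and 50.1, 50.4, 52.1 and 13.8 in withdrawn 24-month libraries (limma adjusted p 0.000252). The phosphodiesterase gene Pde2a (log2 change 2.55, limma adjusted p 0.0099) and the chloride channel gene Ano1 (1.38, limma adjusted p 0.00673) rose too, from means of 6.44 and 32.0 in untreated to 45.5 and 87.8 in withdrawn cells. With OSK on their means were 1731 and 2918. At 3 months neither was called (log2 change 0.26 and -0.35), and the interaction test of the fit used in the text called neither as different between the ages. The lipocalin gene Apod rose from 5307, 5968, 2428 and 9239 to 17492, 10452, 11000.1 and 24428 (log2 change 1.53, limma adjusted p 0.0422).

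Pfkfb3, which makes the activator of phosphofructokinase, read 1292, 1213, 1180.4 and 1382 in untreated and 2602, 1687, 3389 and 3241 in withdrawn libraries (log2 change 1.06, limma adjusted p 0.00392). The hypoxia-inducible factor gene Epas1 (1.33, limma adjusted p 0.0146) and the hormone gene Stc1 (1.25, limma adjusted p 0.0138) rose. Pdk4, a kinase of pyruvate dehydrogenase, fell (-1.49, limma adjusted p 0.003), as did the peptide hormone gene Adm2 (-1.82, limma adjusted p 0.00225). Epas1 lost its call without untreated library 2 or withdrawal library 4 (adjusted p up to 0.0677) and Stc1 without withdrawal library 1 or 4 (up to 0.0662). Apod lost its call without any 1 of untreated libraries 1 to 3 or withdrawal libraries 1, 3 and 4 (up to 0.156). Exons of Pde2a and Stc1 overlap those of a predicted gene, so their reads may be shared with it.

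Of 356 tested genes whose symbols begin with Zfp and a number, 8 were called higher and 0 lower, against 0.622% higher and 1.05% lower of all genes, and 251 had a change above 0. Their median log2 change was 0.12 at 24 months and 0.14 at 3 months, where 34 were called higher and 4 lower, against 4.01% and 5.57% of all genes. Over all tested genes 6926 of 14138 had a change above 0.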
